A study of Mus musculus with 12 samples.

Results

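R-Roscovitine was compared with no treatment in primary mouse motoneuron cultures that carry a normal Smn1 gene, and the comparison was described across all genes. It used 6 of the 12 libraries of the study, 3 treated and 3 untreated, and each treated library was set against the untreated library with the same replicate number (pairs 1 to 3). All cultures were of the FVB strain and carried the human SMN2 transgene. The 6 libraries compared here came from Smn+/+;SMN2 cultures, called control; the treated ones had received 0.5 µM R-Roscovitine, and neither the time of exposure nor the vehicle is given in the sources used here. The other 6 libraries, 3 treated and 3 untreated, came from Smn-/-;SMN2 cultures, a mouse model of spinal muscular atrophy called Smn-null here, and they served for the estimate of the spread and for side-by-side values.

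R-Roscovitine (seliciclib) is a purine that competes with ATP in cyclin-dependent kinases. Among its targets are Cdk1 and Cdk2, which drive the cell cycle, Cdk5, which acts in postmitotic neurons with its activator p35 (Cdk5r1), and Cdk7 and Cdk9, which phosphorylate RNA polymerase II. Independently of kinases, it slows the closing of presynaptic Cav2 calcium channels, whose pores are encoded by Cacna1a, Cacna1b and Cacna1e, so that more calcium enters with each action potential. The treatment of control cultures shows what the compound does to transcripts where Smn1 is intact.

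The unit was FPKM (fragments counted per gene, scaled to transcript length and library size), and the depth of the 6 libraries was 23.3 to 28.7 M reads, as estimated from the smallest common step of their low values. Untreated libraries were slightly deeper, at 27.8 ± 0.786 M reads against 25.2 ± 2.06 M reads in treated ones (mean ± SD, n = 3 each), and each library had 14463 to 14530 genes at 1 FPKM or more. The labels do not say whether the 3 replicates came from separate cultures or animals, so p-values measure the spread between these libraries only. The label "motoneuron" had little support from the defining markers. Of 23 motoneuron markers in the files, 14 passed the filter on low values. The summed level of the 23 was 304, 324 and 318 FPKM untreated and 245.5, 308 and 300 FPKM treated. However, 9 were below 1 FPKM in all 6 control libraries, and Chat, Mnx1 and Isl2 were listed at 0 in each of them. Whether these 0 values come from the cells or from the counting was not tested. Isl1 reached at most 0.845 FPKM, Lhx3 0.668 and the choline transporter Slc5a7 0.141, while Slit2, a secreted guidance cue on the same list, stood between 111 and 182 FPKM. Transcripts of other cells were abundant, among them Gad1 (76.7 to 148 FPKM), which makes GABA, Vim (1852 to 3271 FPKM) and the smooth muscle actin Acta2 (1428 to 2344 FPKM). Of 11 smooth muscle and pericyte markers, Acta2 among them, 5 passed the filter on low values. Another 5, Myh11, Des, Pdgfrb, Kcnj8 and Abcc9, were below 1 FPKM in all 6 libraries. The summed level of the 11 was 3191, 3049 and 3096 FPKM untreated and 2052, 2802 and 3196 FPKM treated. The cultures are therefore called by their label without a claim about their cell type.

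No gene passed the threshold. Of 14978 genes tested, 0 (0%) had an adjusted p under 0.05 (limma with pairs as a block, Benjamini-Hochberg), and the lowest adjusted p was 0.93. At an unadjusted p under 0.05 there were 541 genes (3.61%), fewer than the 749 that chance would give, 240 of them higher (1.6%) and 301 lower (2.01%) with R-Roscovitine. Differences were small: the median size was 0.1 on the log2(FPKM + 1) scale, and only 10 genes differed by more than 1. The 95% confidence interval of a gene extended a median of 0.296 (log2) to each side, and it lay within 1 (log2) of no change in 14828 genes (99%). On this scale a doubling of a low gene is less than 1, so for low genes an interval within 1 does not exclude a 2-fold change in FPKM. For genes at 20 FPKM or more the median half-width was 0.252. In the plot of level against difference, the genes with the lowest p-values stand at the edge of a dense cloud around 0.

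**Figure D1:**
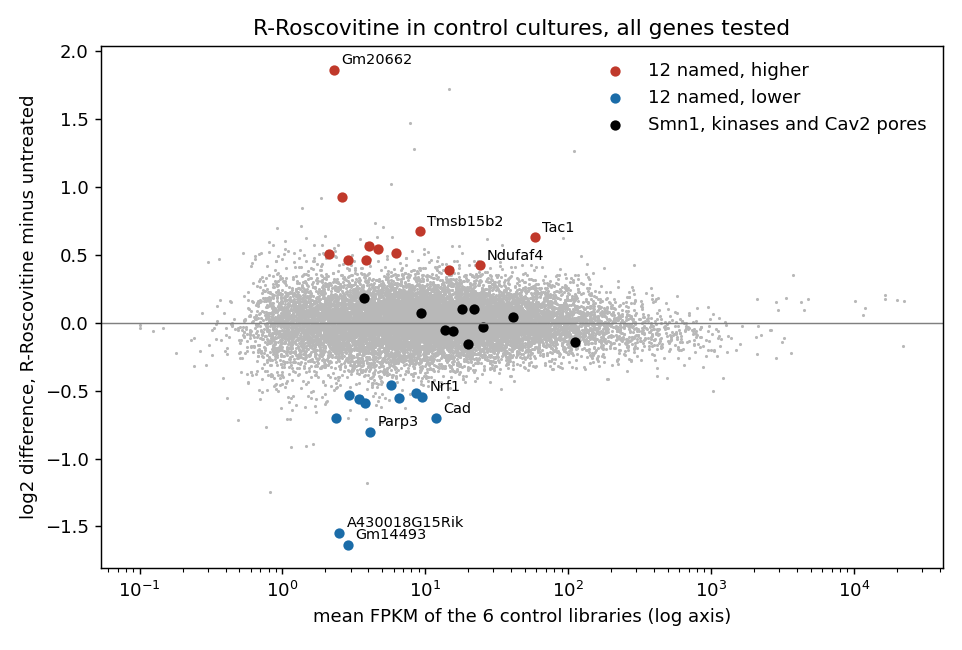
Log2 difference between R-Roscovitine and untreated control cultures (vertical axis) against the mean FPKM of the 6 control libraries (horizontal log axis) for the 14978 genes tested. Red and blue points are the 12 higher and 12 lower genes with the lowest p-values, black points Smn1, the kinases and the Cav2 pores. None passed the adjusted threshold, and most differences are below 0.5.

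The 3 pairs did not share a common pattern. The correlation of the differences across genes, given as a description, was 0 between pairs 1 and 2, -0.187 between pairs 1 and 3 and 0.034 between pairs 2 and 3. In Smn-null cultures the same values were 0.297, 0.095 and 0.082. Genes higher in all 3 pairs numbered 1584 (10.6%) and genes lower in all 3 pairs 1641 (11%). In FPKM, 221 genes (1.48%) were higher and 455 (3.04%) lower with no overlap between the groups.

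Pair 1 stood apart. The SD of its differences over all genes was 0.43 (log2), against 0.208 in pair 2 and 0.228 in pair 3, and 2.01% of genes differed by more than 1 in it, against 0.26% and 0.267%. Both of its libraries were also the farthest from the other control libraries. The differences of pair 1 followed the base composition of the transcripts: their rank correlation with GC content was -0.642 over 14774 genes, against -0.0146 in pair 2 and 0.247 in pair 3. When genes were ordered by GC content and divided into 4 equal parts, the median difference of pair 1 was 0.36 in the part with the lowest GC content and -0.32 in the part with the highest. Most gene groups below are therefore given by pair, and several also after each library's trend over GC content was removed, an alternative chosen after seeing the data. With that correction the SD of pair 1 was 0.333, again 0 of 14774 genes passed, the lowest adjusted p (limma) was 0.94, and genes higher or lower in all 3 pairs numbered 1821 (12.3%) and 1824 (12.3%).

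**Figure D2:**
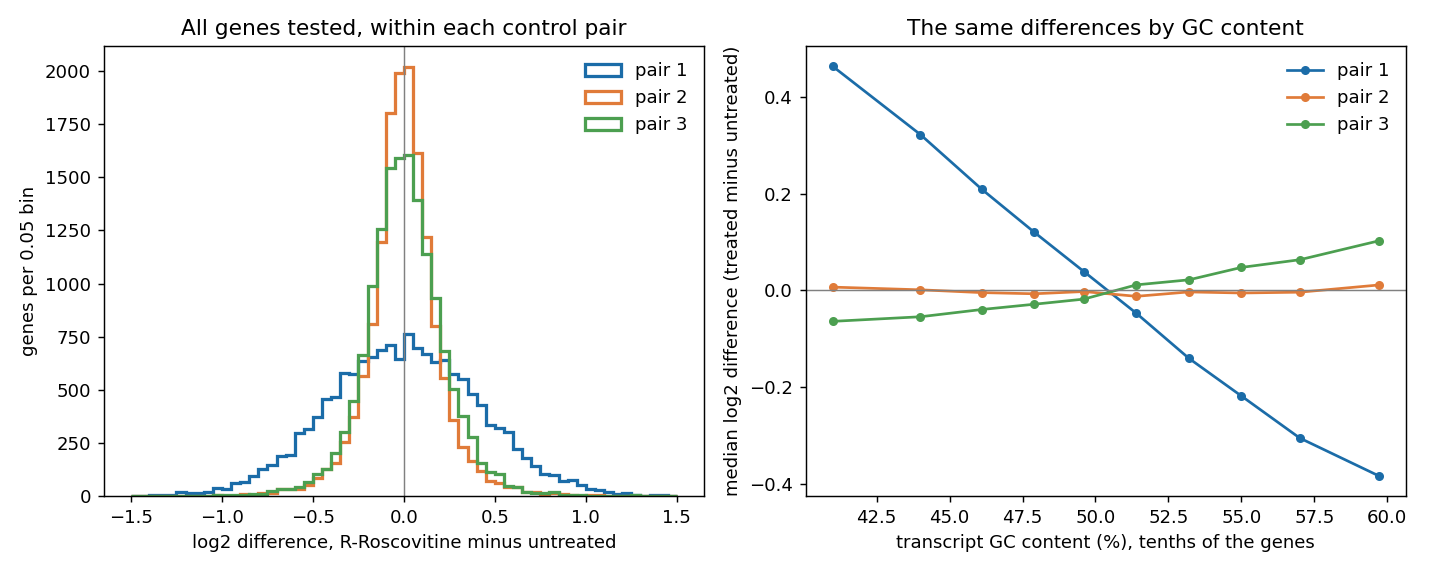
Left, number of genes (vertical axis) by log2 difference between R-Roscovitine and untreated (horizontal axis, shown from -1.5 to 1.5) in each control pair. Right, median log2 difference in each of 10 equal parts of the genes ordered by transcript GC content (horizontal axis, %); pair 1 runs from 0.46 in the lowest part to -0.38 in the highest, pair 2 stays near 0 and pair 3 runs the other way.

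The one setting that called genes was limma's library weights. It gave the libraries of pair 1 a weight of 0.2, those of pair 3 0.812 and those of pair 2 5.61, and 615 genes passed, 315 higher and 300 lower. Of these, 565 had an estimate closest to the difference of pair 2, and 302 went the same way in all 3 pairs. Without pair 3, 0 genes passed in limma, with a lowest adjusted p of 0.0532 and 1167 genes at an unadjusted p under 0.05.

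The transcripts of the direct targets did not differ beyond the spread. Cdk5 stood at 19.8, 16.0 and 12.8 FPKM in untreated pairs 1 to 3 and at 15.5, 15.03 and 14.5 FPKM in the treated ones. The groups overlapped, and the log2 difference was -0.06 ± 0.119 (SE), with a 95% interval from -0.33 to 0.21. Cdk9, the kinase that releases paused RNA polymerase II, was at 22.1, 20.9 and 20.7 FPKM untreated and at 20.4, 17.1 and 18.6 FPKM treated. The groups did not overlap, yet the difference of -0.15 ± 0.0954 had an adjusted p of 0.93 (limma), and 0.0416 with library weights. By pair it was -0.06, -0.27 and -0.13. After GC correction the difference of Cdk9 was -0.08 ± 0.104, with 0.23, -0.27 and -0.19 by pair. In Smn-null cultures, without that correction, Cdk9 differed by -0.29 ± 0.0954, with -0.22, -0.33 and -0.33 by pair. Its unadjusted p there was 0.0128 and its adjusted p 0.6392 (limma). Cdk1 (-0.14 ± 0.122), Cdk2 (0.11 ± 0.0974) and Cdk7 (0.07 ± 0.0996) had intervals that crossed 0. Cdk5r1, at 37.4, 19.0 and 20.7 FPKM untreated and 34.2, 16.2 and 23.5 FPKM treated, differed by -0.03 ± 0.107, against 0.49 ± 0.107 in Smn-null cultures; the unadjusted p of that contrast between genotypes was 0.0066, its adjusted p not under 0.8128 (limma). Of the 25 kinases, cyclins and activators on the list, 0 passed and 0 had an unadjusted p under 0.05, and their median difference was 0.03, against 0.00 over all genes.

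The Cav2 pores gave the same picture. Cacna1a (P/Q-type) was at 19.8, 18.4 and 14.7 FPKM untreated and 18.5, 19.5 and 17.4 FPKM treated, a difference of 0.10 ± 0.106 with an interval from -0.14 to 0.34. Cacna1b (N-type) was at 18.3, 12.7 and 11.4 FPKM untreated and 15.3, 11.8 and 12.3 FPKM treated, with -0.06 ± 0.219 and an interval from -0.55 to 0.44. Cacna1e (R-type) differed by 0.18 ± 0.142. All 3 groups of values overlapped. Of 21 calcium channel genes, 13 were higher and 8 lower, with a median of 0.02 (-0.08, 0.04 and 0.10 by pair) and 0 at an unadjusted p under 0.05. After GC correction 18 were higher and 3 lower, with a median of 0.05 (0.12, 0.04 and 0.09 by pair) and 0 called. There 7 were higher in all 3 pairs, against 12.3% of all genes, and 0 lower. Cacna1a then differed by 0.16 ± 0.0837 (0.19, 0.09 and 0.20 by pair) and Cacna1b by 0.01 ± 0.203.

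Gene groups that are known to depend on the target kinases were examined next; kinase activity was not measured. The 25 short-lived transcripts whose level falls first when transcription elongation is blocked had a median of -0.05 (-0.12, -0.07 and 0.00 by pair), and 17 of them were lower. In all 3 pairs 4 were lower (16%, against 11% of all genes) and 0 higher, with 0 called. After GC correction the median was -0.04 (-0.10, -0.06 and -0.04 by pair), with 0 called. There 7 were lower in all 3 pairs, against 12.3% of all genes, and 0 higher. Id3, an inhibitor of differentiation factors, was at 12.3, 29.9 and 8.04 FPKM untreated and 7.94, 28.9 and 6.61 FPKM treated (-0.27 ± 0.12), and Jun, a component of the AP-1 factor, differed by -0.28 ± 0.128. The intervals of both genes ended just above 0. Mcl1, a short-lived survival factor often read for Cdk9 inhibition, was at 29.2, 48.2 and 49.6 FPKM untreated and 43.0, 44.2 and 41.9 FPKM treated, and its difference of 0.09 ± 0.148 was within the spread (it was chosen for its role).

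Of 55 cell cycle genes, 39 were lower and 16 higher, with a median of -0.06 (by pair -0.10, -0.01 and -0.08) and 0 called. In all 3 pairs 11 were lower (20%, against 11% of all genes) and 3 higher. After GC correction 45 were lower and 10 higher, with a median of -0.08 and 0 called. There 18 were lower in all 3 pairs, against 12.3% of all genes, and 2 higher. Cenpf, a kinetochore protein of dividing cells, was at 37.5, 38.4 and 52.0 FPKM untreated and 30.2, 32.9 and 34.8 FPKM treated. The groups did not overlap, and the difference was -0.34 ± 0.13 with an unadjusted p of 0.0285 (limma). Kif20a, a kinesin of cytokinesis, differed by -0.24 ± 0.101 and Aurka, a spindle kinase, by -0.22 ± 0.0993. The median of the 39 replication-dependent histones was -0.18, but it came from pair 1 alone (-0.56, against 0.01 and 0.07), as did most of the shift of the 72 ribosomal protein genes (-0.36, -0.04 and 0.11). Without pair 1, the 39 histones split into 18 higher and 21 lower. These values are before GC correction, where 6 histones were lower in all 3 pairs (15.4%, against 11% of all genes) and 0 higher. After it, 33 histones had a value, 25 lower and 8 higher, with medians of -0.26, -0.04 and -0.02 by pair and 0 called. There 8 were lower in all 3 pairs, against 12.3% of all genes, and 1 higher. Of 29 p53 targets, 4 were lower in all 3 pairs (13.8%, near the 11% of all genes) and 0 higher. Their median was -0.08 (-0.16, -0.06 and -0.05 by pair), and -0.03 after GC correction; the exonuclease gene Aen had the lowest unadjusted p (-0.35 ± 0.103).

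Neuropeptides were the list with the highest median among the 30 pathway lists examined. The list holds precursors of peptides stored in dense-core vesicles, the granins that form these vesicles and the convertases that process the peptides. Of 30 members, 23 passed the filter on low values, and Tac2, Calcb, Vip, Pomc, Crh, Trh and Nppb did not. Among the 23, 21 were higher and 2 lower with R-Roscovitine, 9 were higher in all 3 pairs (39.1%, against 10.6% of all genes) and 0 lower, and 0 were called. The median was 0.18 (log2), with 0.31, 0.20 and 0.23 in pairs 1 to 3 and 0.20 after GC correction. The summed level of the list was 1185, 818 and 804 FPKM untreated and 1255, 904 and 973 FPKM treated, higher in each pair but with overlapping groups.

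Tac1, the precursor of substance P and neurokinin A (chr6:7554879-7565834, GRCm38), was at 50.6, 38.7 and 44.8 FPKM untreated and 105.5, 46.1 and 65.0 FPKM treated. The treated library of pair 1 stood far above the rest, and the groups overlapped by the low treated value of pair 2. The difference was 0.63 ± 0.172, with an interval from 0.25 to 1.02, an unadjusted p of 0.0047 and an adjusted p of 0.93 (limma); without pair 1 it was 0.40. Cartpt, which encodes the CART peptide, was at 8.69, 5.99 and 9.32 FPKM untreated and 11.1, 8.79 and 15.1 FPKM treated (0.51 ± 0.154). Galanin (Gal) was at 2.80, 2.60 and 1.86 FPKM untreated and 3.43, 3.49 and 3.25 FPKM treated (0.39 ± 0.128). It was the only member of the 23 whose groups did not overlap. Penk, the enkephalin precursor, was at 6.42, 6.03 and 11.7 FPKM untreated and 12.0, 10.2 and 12.3 FPKM treated (0.54 ± 0.183), so that pair 3 had almost no difference. Scg2 (0.31 ± 0.109), Scg3 (0.32 ± 0.115) and Adcyap1, which encodes PACAP (0.39 ± 0.143), were the other members with an unadjusted p under 0.05; they were named after their values were seen. Sst, the somatostatin gene, was at 165, 85.4 and 76.9 FPKM untreated and 118, 107 and 117 FPKM treated, lower in pair 1 and higher in the others.

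**Figure D3:**
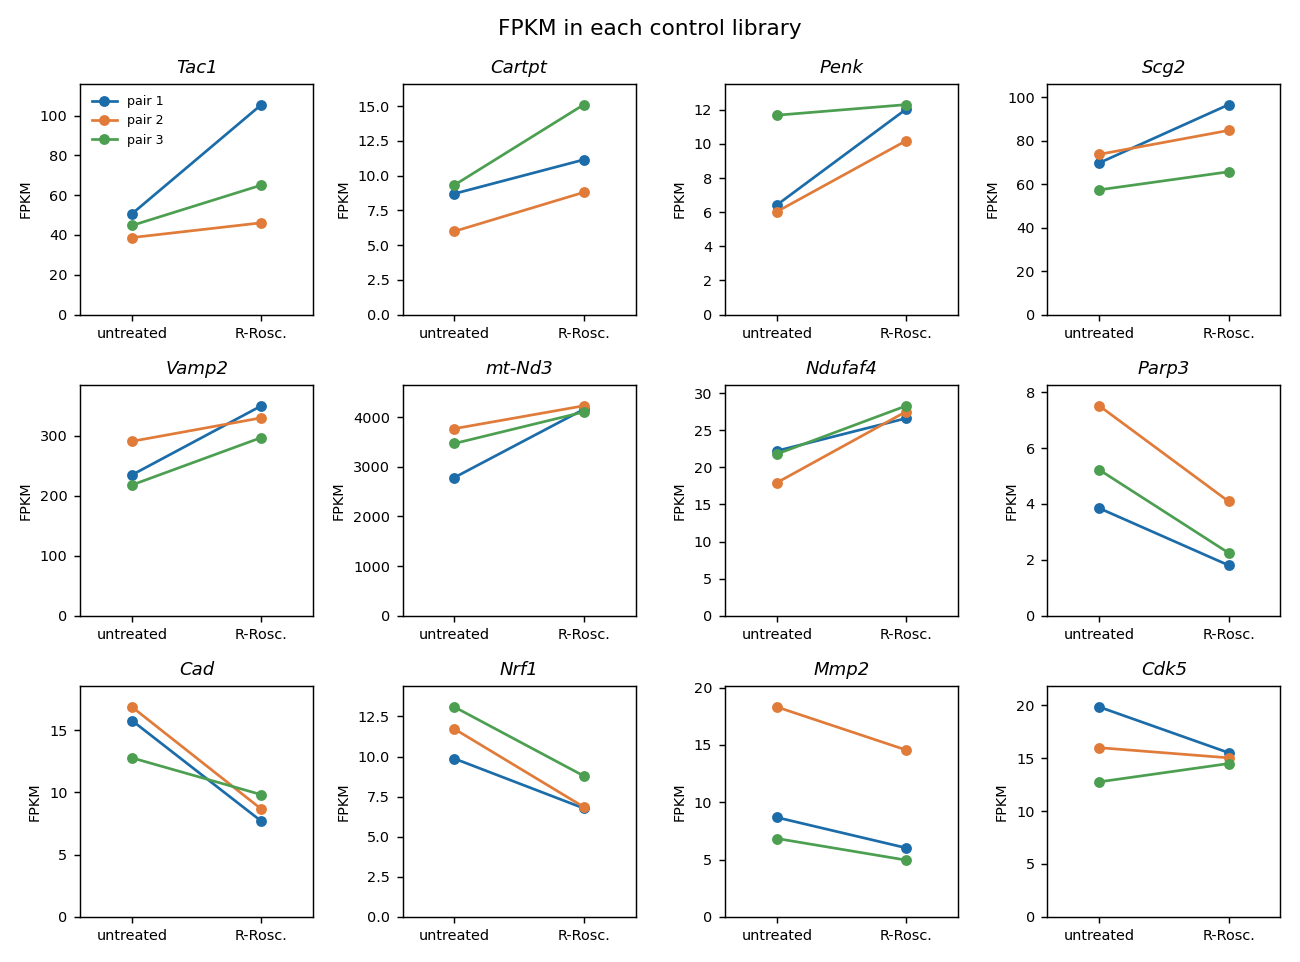
FPKM (vertical axes from 0) in the untreated and R-Roscovitine libraries of each control pair for 12 genes; lines join the libraries of a pair. Tac1, Cartpt, Penk, Scg2, Vamp2, mt-Nd3 and Ndufaf4 are higher in all 3 treated libraries than in their untreated partners, Parp3, Cad, Nrf1 and Mmp2 lower, and Cdk5 moves in both directions.

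Many neuropeptide genes carry a cAMP response element, the site of the CREB family of activity-dependent transcription factors, in their promoter. Sequences are shown for Tac1 and Cartpt, which had the lowest p-values of the list, and for Scg2, chosen after its values were seen because it holds the full element. RefSeq promoters (GRCm38.p6, 250 bases before to 50 after the gene start) were matched for 18 of the 23 tested members; the others are Penk, Vgf, Cpe, Grp and Pnoc. The full element TGACGTCA, which reads the same on both strands, was found in 5 of these 18 genes (27.8%), namely Cartpt, Scg2, Pcsk1, Chgb and Sst, against 549 of 27025 RefSeq genes (2.03%). The shorter element TGACG or CGTCA, letters that are each other's reverse complement and both lie within the full element, was found in 14 of 18 (77.8%) against 23%. Cartpt and Scg2 hold the full element and Tac1, with the lowest p of the list, holds the shorter one only. The other holders of the full element did not go one way in all 3 pairs after GC correction. By pair, Sst differed by -0.165, 0.325 and 0.557, Pcsk1 by -0.0334, 0.187 and 0.0785, and Chgb by 0.483, 0.204 and -0.0794. Gal holds TGACG starting 20 bases after the gene start and no other match. The lines give the 250 bases before the RefSeq gene start, with the elements in capitals, for Tac1 at chr6:7554811-7555060 (plus strand), Cartpt at chr13:99900684-99900933 (minus strand) and Scg2 at chr1:79440027-79440276 (minus strand). For Tac1 the RefSeq start lies inside the gene as given above (chr6:7554879-7565834), so most of the printed stretch is within that gene's coordinates.
Tac1: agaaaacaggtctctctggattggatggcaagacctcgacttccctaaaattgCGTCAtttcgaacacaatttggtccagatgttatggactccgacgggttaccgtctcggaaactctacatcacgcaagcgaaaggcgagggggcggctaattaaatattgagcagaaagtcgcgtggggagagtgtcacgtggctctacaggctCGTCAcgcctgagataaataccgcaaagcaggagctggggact
Cartpt: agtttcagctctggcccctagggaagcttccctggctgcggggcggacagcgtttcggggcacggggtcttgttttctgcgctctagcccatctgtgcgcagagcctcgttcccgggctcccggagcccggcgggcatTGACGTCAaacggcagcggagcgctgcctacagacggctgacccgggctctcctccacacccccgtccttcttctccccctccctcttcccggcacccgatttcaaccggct
Scg2: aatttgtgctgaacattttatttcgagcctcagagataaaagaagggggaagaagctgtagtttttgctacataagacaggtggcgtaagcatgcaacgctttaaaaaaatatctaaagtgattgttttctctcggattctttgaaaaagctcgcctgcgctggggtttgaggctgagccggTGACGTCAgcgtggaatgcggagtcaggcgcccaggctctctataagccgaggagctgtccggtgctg
In Cartpt the element starts 112 bases before the gene start and in Scg2 68 bases before it. A match of letters is a description of the sequence and no evidence that a factor binds there.

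Genes of transmitter release lay in the same direction. Of 43 presynaptic genes, 39 were higher and 4 lower, 13 were higher in all 3 pairs (30.2%, against 10.6%) and 0 lower, and 0 were called. The median was 0.11, at 0.15, 0.11 and 0.10 by pair. After GC correction it was 0.14, and 22 of the 43 were higher in all 3 pairs, against 12.3% of all genes. Vamp2, the synaptic vesicle SNARE synaptobrevin, was at 235, 291 and 218 FPKM untreated and 350, 330 and 297 FPKM treated. These groups did not overlap, and the difference was 0.43 ± 0.141 with an unadjusted p of 0.0139 (limma). Stxbp5, the SNARE regulator tomosyn, was at 16.6, 12.3 and 12.7 FPKM untreated and 19.7, 16.5 and 14.5 FPKM treated (0.29 ± 0.0986). Syt4, a synaptotagmin of dense-core vesicles, differed by 0.38 ± 0.138, mostly in pair 1 (0.80, against 0.22 and 0.10), and Stx1a, syntaxin of the plasma membrane, by 0.27 ± 0.115.

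Receptors and channels were higher mainly in pair 1. All 19 GABA and glycine receptor genes tested were higher, 9 of them in all 3 pairs (47.4%, against 10.6% of all genes). Yet the median of 0.17 was made of 0.50 in pair 1 and of 0.07 and 0.06 in the others. These transcripts are low in GC, at a median of 44.1% against 50.4% over all genes, and after GC correction the median was 0.12, at 0.20 in pair 1. Gabra5, an extrasynaptic GABA-A receptor subunit, was at 29.0, 22.4 and 24.5 FPKM untreated and 41.6, 27.7 and 27.6 FPKM treated (0.35 ± 0.105). Gabrb2 differed by 0.34 ± 0.137. Of 38 sodium and potassium channel genes, 30 were higher, with medians of 0.20, 0.05 and 0.06 by pair. Kcnj3, a subunit of G protein-gated potassium channels, was at 5.59, 4.99 and 3.28 FPKM untreated and 6.47, 7.36 and 4.03 FPKM treated (0.32 ± 0.121), the largest share of it in pair 2.

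Interneuron markers were higher beside these neuronal lists. Of 29, 20 were tested, 16 were higher and 4 lower, and the median was 0.11 (0.09, 0.07 and 0.11 by pair). In all 3 pairs 7 were higher (35%, against 10.6% of all genes) and 0 lower, with 0 called. After GC correction the median was 0.19, at 0.37, 0.07 and 0.04 by pair. There 10 were higher in all 3 pairs, against 12.3% of all genes. Their summed level was 423, 301 and 254 FPKM untreated and 448, 309 and 286 FPKM treated. Slc6a5, the glycine transporter of inhibitory neurons, was at 28.6, 27.1 and 21.6 FPKM untreated and 35.6, 30.5 and 23.9 FPKM treated (0.23 ± 0.0975). Neural progenitor markers were lower in 16 of 20, with a summed level of 3524, 3706 and 3431 FPKM untreated and 2235, 3549 and 3296 FPKM treated, most of it Vim and most of the difference in pair 1. Without pair 1 the 20 split into 10 higher and 10 lower. Of the 14 motoneuron markers tested, 7 were higher and 7 lower, with a median of -0.01 (-0.11, 0.03 and 0.00 by pair). The part of these cells in the neuronal lists was not tested, and in bulk RNA fewer cells of a type and less RNA per cell cannot be told apart.

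**Figure D4:**
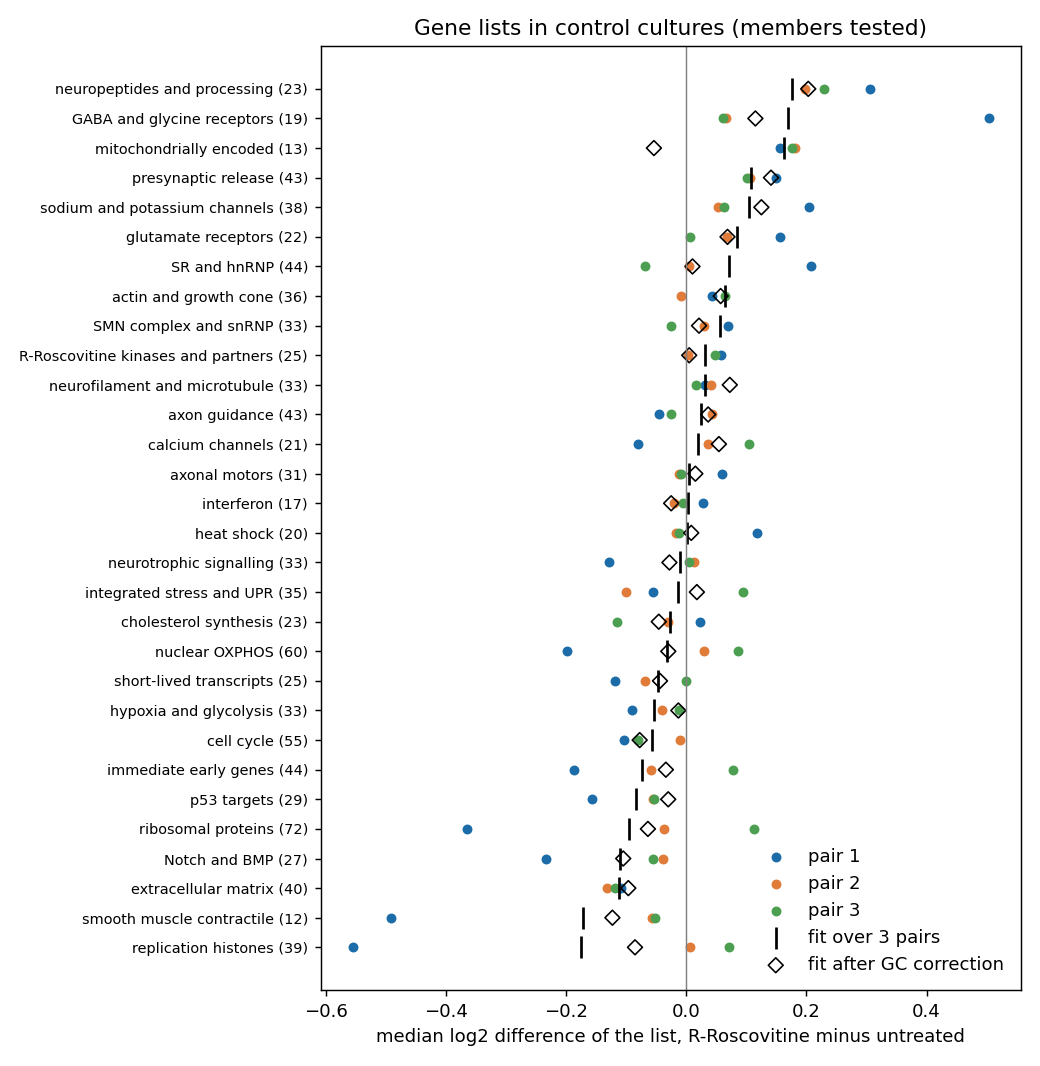
Median log2 difference between R-Roscovitine and untreated (horizontal axis) of the tested members of 30 gene lists, number tested in brackets. Dots are the control pairs, bars the fit over the 3 pairs and diamonds the fit after GC correction. Neuropeptide and presynaptic medians are above 0 in each pair. Before GC correction, histone and ribosomal medians rest on pair 1, and contractile medians are below 0 in each pair and lowest in pair 1. The mitochondrially encoded median is below 0 after GC correction.

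Mitochondrially encoded transcripts were higher on the scale used, but not after GC correction. They took 17.7%, 19.4% and 18.5% of the FPKM sum in untreated and 20.59%, 21.29% and 19.99% in treated libraries. The groups did not overlap (18.5 ± 0.85% and 20.6 ± 0.651%, SD, n = 3), and the two-sided exact permutation p was 0.1, the smallest that 3 against 3 allows, and 0.25 within pairs, the smallest for 3 pairs. In Smn-null libraries the share was 22.98%, 19.25% and 20.38% untreated and 23.72%, 20.21% and 19.96% treated (exact permutation p = 0.7). Of the 13 protein-coding genes of the mitochondrial genome, 12 were higher, with a median of 0.16 (0.16, 0.18 and 0.18 by pair) and 0 called. In all 3 pairs 8 were higher (61.5%, against 10.6% of all genes), and after GC correction 0 were. mt-Nd3, a subunit of complex I, was at 2785, 3770 and 3471 FPKM untreated and 4160, 4231 and 4106 FPKM treated (0.36 ± 0.11, unadjusted p = 0.00988 in limma). mt-Atp6, a subunit of the ATP synthase, differed by 0.20 ± 0.0995. The median ranged from 0.055 with quantile normalization to 0.19 under the other settings, and it turned to -0.05 after GC correction, at -0.50, 0.15 and 0.24 by pair. These transcripts have a median GC content of 37.1%, below the median of 41% in the lowest of 10 equal parts of all genes. The 60 nuclear genes of oxidative phosphorylation had a median of -0.03 (-0.20, 0.03 and 0.09 by pair). Without pair 1 their median was 0.05, with 43 higher and 17 lower, so the sign came from pair 1.

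The median of the extracellular matrix genes was below 0 in each pair before GC correction. Of 46, 40 were tested, 35 were lower and 5 higher, 14 were lower in all 3 pairs (35%, against 11% of all genes) and 0 higher, with 0 called. The median was -0.11, at -0.11, -0.13 and -0.12 by pair, and after GC correction -0.10, at 0.01, -0.13 and -0.14. After that correction 31 were lower and 9 higher, 9 were lower in all 3 pairs (against 12.3% of all genes) and 1 was higher in all 3. Mmp2, a gelatinase that degrades basement membrane, was at 8.68, 18.3 and 6.84 FPKM untreated and 6.01, 14.6 and 4.95 FPKM treated. The groups overlapped because both libraries of pair 2 were high, and within pairs the difference was -0.42, -0.30 and -0.38 (-0.37 ± 0.104, unadjusted p = 0.00613 in limma). Mmp14, which activates Mmp2, was at 9.36, 23.2 and 8.84 FPKM untreated and 6.25, 18.4 and 7.51 FPKM treated (-0.32 ± 0.117). Col4a2, a collagen of the basement membrane, was at 6.33, 17.1 and 6.69 FPKM untreated and 4.61, 13.3 and 5.60 FPKM treated (-0.29 ± 0.11). All 3 were highest in both libraries of pair 2, as were the fibroblast markers. Of 18 fibroblast markers, 9 were tested, 7 were lower and 2 higher and none of the 9 went one way in all 3 pairs. Their summed level was 46.0, 167 and 53.6 FPKM untreated and 46.3, 163 and 44.4 FPKM treated, and Col3a1, Lum, Pdgfra and Pdgfrb were below 1 FPKM in all 6. The part of fibroblast content in the matrix genes was not tested. The 12 contractile genes of smooth muscle were lower in all 12 cases, with medians of -0.49, -0.06 and -0.05 by pair and 0 called. In all 3 pairs 7 of them were lower (58.3%, against 11% of all genes). Without pair 1, 9 were lower and 3 higher. After GC correction 6 were lower in all 3 pairs, against 12.3% of all genes.

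The single genes with the lowest p-values that moved one way in all 3 pairs were 12 higher and 12 lower; they were picked by p, so their p-values and directions support nothing further. Parp3, an ADP-ribosyltransferase of DNA break repair (chr9:106470322-106476949, GRCm38), had the lowest p of all genes. It was at 3.85, 7.52 and 5.22 FPKM untreated and 1.804, 4.09 and 2.25 FPKM treated, and the within-pair differences of -0.75, -0.74 and -0.92 were nearly equal although the groups overlapped. The fit gave -0.80 ± 0.118, an unadjusted p of 6.9e-05 and an adjusted p of 0.93 (limma). Cad, the enzyme that starts pyrimidine synthesis (chr5:31054780-31078479), was at 15.8, 16.9 and 12.8 FPKM untreated and 7.68, 8.66 and 9.82 FPKM treated (-0.70 ± 0.139). Nrf1, a transcription factor of nuclear genes for mitochondria (chr6:30047988-30153458), was at 9.87, 11.7 and 13.1 FPKM untreated and 6.77, 6.85 and 8.79 FPKM treated (-0.54 ± 0.121). The groups of both genes were apart. Atg7, an enzyme of autophagosome formation, was at 7.43, 6.63 and 6.54 FPKM untreated and 4.38, 4.93 and 4.59 FPKM treated (-0.46 ± 0.111). Sun2, which links the nuclear envelope to the cytoskeleton, was at 11.4, 9.78 and 9.82 FPKM untreated and 5.94, 6.28 and 8.34 FPKM treated (-0.52 ± 0.134). Of the 12 lower genes, 9 had no overlap between groups, against 3.04% of all genes in this direction. They were picked by p from the same values, so this count supports nothing further. Beside those described, the lower genes were A430018G15Rik, Echdc2, the cytokine gene Clcf1, 2210417K05Rik, Gm14493, Gm7097 and Zfp691.

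Among the 12 higher genes, 4 had no overlap, against 1.48% of all genes in this direction, and the same limit holds for this count. Ndufaf4, an assembly factor of respiratory complex I (chr4:24898083-24905001), was at 22.2, 17.9 and 21.8 FPKM untreated and 26.6, 27.5 and 28.3 FPKM treated, with all treated libraries above all untreated ones (0.43 ± 0.101). After GC correction its difference was 0.28 ± 0.134, with -0.20, 0.58 and 0.45 by pair, so that pair 1 turned. The other 11 higher and all 12 lower genes went one way in all 3 pairs there too. They had been picked for going one way in these pairs, so this is no independent support. Tmsb15b2, a thymosin that binds actin monomers, was at 6.24, 6.22 and 8.09 FPKM untreated and 15.6, 10.1 and 8.97 FPKM treated (0.67 ± 0.178). Cbx8, a Polycomb subunit that reads methylated histone H3, was at 3.58, 2.66 and 3.08 FPKM untreated and 5.02, 5.21 and 3.57 FPKM treated (0.46 ± 0.137). Beside those described, the higher genes were Tac1, Gm20662, A230072C01Rik, 0610040B10Rik, Uchl4, 5430416N02Rik, Gm11837, the kinetochore gene Cenpk and the methyltransferase gene Mettl13. The annotation lists 0610040B10Rik, Gm11837, 2210417K05Rik, Gm14493 and Gm7097 as antisense RNAs, and the strand setting of the counting is not given in the sources used here, so their values are uncertain.

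Smn1 itself was at 30.9, 41.2 and 51.2 FPKM untreated and 45.1, 38.1 and 39.2 FPKM treated, with means of 41.1 ± 10.2 and 40.8 ± 3.77 FPKM (SD, n = 3) and a two-sided exact permutation p of 1.

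The treatment difference in control cultures was set beside that in Smn-null cultures, which share no library with it. There, too, 0 of 14978 genes (0%) passed in limma, with a lowest adjusted p of 0.6155 and 1101 genes (7.35%) at an unadjusted p under 0.05. The contrast between genotypes called 0 genes, with a lowest adjusted p of 0.8128 and 721 genes (4.81%) at an unadjusted p under 0.05. The correlation of the mean differences across genes was -0.042. Differences in Smn-null cultures also followed GC content, with rank correlations of 0.343, 0.286 and 0.161 in pairs 1 to 3. For the mean of the control pairs it was -0.466, the opposite sign. All values given for Smn-null cultures, and the correlations between pairs, are without GC correction. The part of GC content in them was not tested. Of the 24 genes named for their p, 6 of the 12 higher were also higher in Smn-null cultures and 2 of the 12 lower were also lower. A430018G15Rik, a noncoding RNA gene, was at 5.58, 3.76 and 3.25 FPKM untreated and 0.956, 1.37 and 0.0812 FPKM treated in control cultures (-1.55 ± 0.276), and differed by 0.58 ± 0.276 in Smn-null cultures; its unadjusted p for the contrast, 0.00036, became 0.8128 when adjusted (limma).

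Neuropeptides were higher in both genotypes. The median of the 23 genes was 0.18 in control and 0.31 in Smn-null cultures, where the pairs gave 0.36, 0.44 and 0.14 and all 23 were above 0. Tac1 differed by 0.63 ± 0.172 and 0.69 ± 0.172, Cartpt by 0.51 ± 0.154 and 0.70 ± 0.154, and Penk by 0.54 ± 0.183 and 0.48 ± 0.183. Their contrasts between genotypes had unadjusted p-values of 0.82, 0.40 and 0.82 (limma). Without GC correction, presynaptic genes had a median of 0.11 in control and 0.25 in Smn-null cultures and interneuron markers 0.11 and 0.31. The interneuron markers have a median GC content of 55.35%, against 50.42% over all genes. For mitochondrially encoded genes the medians were 0.16 and 0.05, and for matrix genes -0.11 and -0.05. No gene of these lists was called for a contrast between genotypes, so none of these medians is shown to be particular to control cultures.

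**Figure D5:**
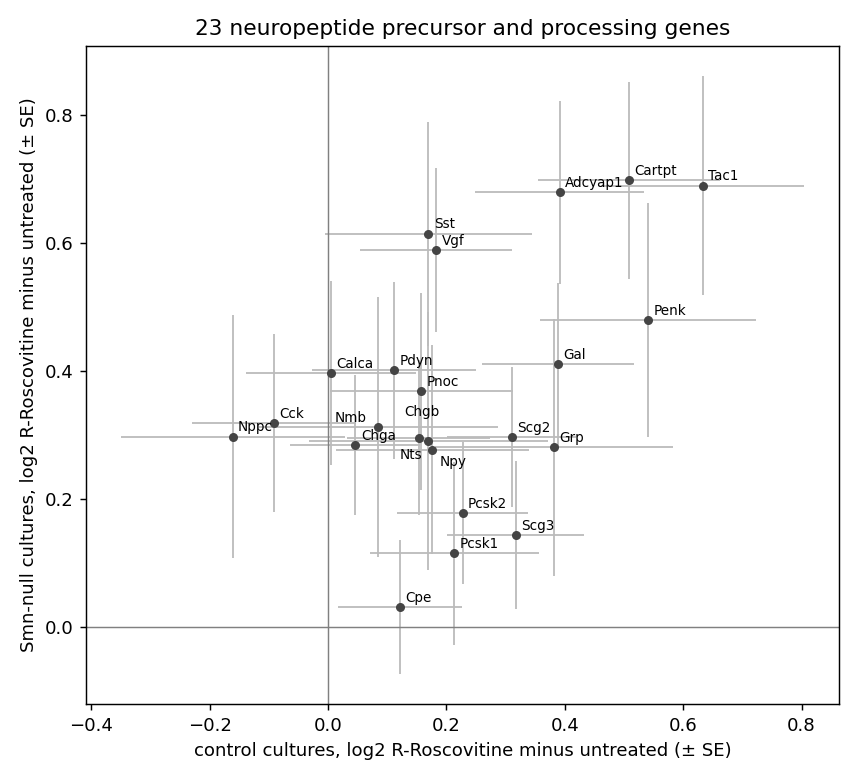
Log2 difference between R-Roscovitine and untreated with its SE for the 23 tested neuropeptide precursor and processing genes in control (horizontal axis) and Smn-null cultures (vertical axis). Tac1, Cartpt, Penk and Adcyap1 lie farthest toward the upper right, and Nppc and Cck are below 0 in control cultures.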

How the data were processed

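The RNA of 12 libraries was sequenced after extraction with a Nucleospin RNA kit and preparation with Lexogen's mRNA-Seq kit, per the labels' protocols. The authors deposited 1 table of FPKM per gene and library; The submitters' processing notes list Cufflinks 2.2.1, Trim Galore 0.4.0, FastQC 0.10.1 and the build GRCm38, with no settings; for alignment and strand settings nothing was found in the labels or files. FPKM is not a count: 34.6% to 37.0% of the low values in control libraries came out as whole reads within 0.01 reads, so no count test was run, and depth is an estimate.

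Of 39174 gene ids, 19 stood on several rows and were summed. The filter kept genes that reached 1 FPKM in 3 or more of all 12 libraries, without small RNAs. Values were scaled by the median of ratios, and log2(FPKM + 1) was fitted with limma 3.58.1 (R 4.3.3) over all 12 libraries, with the pair as a block and the treatment within each genotype; p-values were adjusted over all genes by Benjamini-Hochberg. A fold on this scale understates the change of low genes. The numbers were taken as pairs because the comparison was defined that way. Deviations of libraries with the same number correlated at 0.237, 0.597 and 0.339 in control cultures. Single values were compared by exact permutation. GC content is the median over a gene's transcripts in GENCODE M21; the GC correction removed each library's smooth trend over it and was chosen after seeing the data. The fit was tested on simulated data.

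The comparison, the gene lists and the tests were chosen with earlier results of these data known. Named genes are the 12 higher and 12 lower with the lowest p among those at a mean of 2 FPKM or more that went one way in all 3 pairs, the direct targets, and the 1 to 4 members of each list with the lowest p; further members are said to be chosen otherwise.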

Additional observations from a re-analysis of the deposited data

Results flagged for a closer look

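The list of kinases, cyclins and activators that R-Roscovitine acts on had a median difference of 0.031 (log2) in control cultures, with 0.06, 0.00 and 0.05 in the 3 pairs, all above 0. In Smn-null cultures the median was -0.03, with -0.10, -0.02 and -0.03 in the pairs, all below 0. The groups of pairs thus lay on opposite sides of 0, by small amounts. After GC correction the control pairs were at -0.01, 0.01 and 0.04, with a median of 0.00, so control pair 1 fell below 0. The Smn-null medians are given without that correction, so the separation was not examined after it. The difference between the genotypes was not tested for the list, and no member passed for the contrast between genotypes.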

How the results depend on the processing

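The count of 0 genes called held under every setting tried except limma's library weights, which called 615; leaving out 1 control pair at a time gave 0 to 0. With the replicate block 541 genes had an unadjusted p under 0.05, and without it 188, again with 0 called. The counts at an unadjusted p without pairs 1, 2 and 3 were 588, 714 and 1167. Leaving out 1 control pair at a time moved Smn1 (log2) from -0.229 to 0.242, Cdk5 from -0.181 to 0.056, Cdk5r1 from -0.142 to 0.06 and Cacna1b from -0.139 to 0.015. Reversed differences all had intervals that crossed 0 in the fit reported, and the largest was Cdk1 at -0.14 ± 0.122. With library weights, Smn1 was -0.111, Cdk1 0.005 and Cdk7 0.00. The reversals of Smn1, Cdk5 and Cacna1b came also or only without pair 1 and that of Cdk5r1 without pair 2. After GC correction, Cdk7 was -0.013, Cdk5r1 0.067 and Cacna1b 0.008. The cause was not tested. Of the values for named genes under other settings, 503 kept direction and side of the threshold and 20 passed it, all with library weights. Of the list medians, 601 moved by less than the spread and 38 by more. The precision is limited by 3 pairs: the median 95% interval of a gene reached 0.296 (log2) to each side, and 0.339 for genes at 1 to 5 FPKM.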

Other observations

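Genes of the Notch and BMP pathways, which keep progenitors undifferentiated or steer them to glia, were lower in 20 of the 27 tested and higher in 7. Of these, 9 were lower in all 3 pairs (33.3%, against 11% of all genes) and 2 higher. The median was -0.11, with -0.23, -0.04 and -0.06 by pair. Dll1, a Notch ligand of newborn neurons, was at 6.004, 3.73 and 5.75 FPKM untreated and 4.27, 2.67 and 3.15 FPKM treated, lower in each pair with overlapping groups (-0.47 ± 0.144). Genes of glutamate receptors were higher in 16 of 22, with a median of 0.09 (0.16, 0.07 and 0.01 by pair). In all 3 pairs 6 were higher (27.3%, against 10.6% of all genes) and 1 lower. The 44 genes for SR proteins and hnRNPs had a median of 0.07, of which pair 1 gave 0.21 and the other pairs 0.00 and -0.07. Immediate early genes, which follow neuronal activity, had a median of -0.07 in control and 0.11 in Smn-null cultures, with control pairs at -0.19, -0.06 and 0.08. No gene of these lists was called by limma, and no explanation was tested.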
